A study of Mus musculus with 8 samples.

Results

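The genes described here are 34 interferon-stimulated genes, read by symbol from a table of gene-level read counts in mouse heart. They were chosen by name as a module, from the 55487 genes of the table, with earlier results of these data known. Of them, 33 were among the 13648 genes with enough reads to be tested. The gene left out was Mx1. All 8 libraries came from hearts of db/db mice, a strain that lacks the signalling form of the leptin receptor and develops obesity and diabetes. A group of 4 libraries came from animals given vehicle, and the other 4 from animals given DIZE, taken here as diminazene aceturate, a compound used in the study as an activator of angiotensin-converting enzyme 2. Both groups carried the db/db genotype, and no lean group is among the samples analysed here. The sources used here do not give age, sex, dose or length of treatment. Nor do the labels tell whether libraries stand for different animals, and the p-values cover the spread among these libraries alone, which may be technical.

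Interferons are secreted proteins that cells release on sensing foreign or misplaced nucleic acid. Type I interferons act through the receptor chains IFNAR1 and IFNAR2, the kinases JAK1 and TYK2, and a complex holding STAT2 and IRF9 that binds the interferon-stimulated response element (ISRE). Interferon gamma acts through another receptor and on another element, the gamma-activated site (GAS). Many interferon-stimulated genes respond to both. In the heart these genes are expressed at a basal level by endothelial cells, fibroblasts, macrophages and cardiomyocytes, and they are known to be induced in viral myocarditis and after infarction.

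Some of the members share short stretches of letters just before their start sites. RefSeq promoter windows on GRCm38.p6 were found for 23 of the 34 members. The ISRE core was searched as GAAANNGAAA on both strands, with overlapping matches allowed, in the 250 bases before the start. It was present for 8 of the 23 matched members (34.8%) and for 936 of 27025 genes in the promoter table (3.46%). The GAS core was searched as TTCNNNGAA, which reads the same way on both strands, and was present for 6 of the 23 (26.1%) and for 2197 of the 27025 (8.13%). Members with the ISRE letters were Bst2, Ifit1, Ifit3, Isg15, Oas1a, Rsad2, Stat2 and Trim30a, and those with the GAS letters were Bst2, Eif2ak2, Ifit2, Irf1, Oas1a and Samhd1. In Bst2 a match to the GAS core overlapped a match to the ISRE core. A match describes the letters only, and a window without them may hold a variant of the site or a site farther away.

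The stretches below show how the same letters recur before genes of different function. Each ends at the last base before the RefSeq start site and is written from 5′ to 3′ along the gene. The ISRE core is in capitals in the first 5 and the GAS core is in capitals in Irf1. Gene coordinates printed further on come from GENCODE, whose start can differ from the RefSeq start. The Ifit1 stretch therefore ends inside the gene as given there. Isg15 lies at chr4:156200819-156200918 on the minus strand, Ifit1 at chr19:34640769-34640888 on the plus strand, Ifit3 at chr19:34583359-34583528 on the plus strand, Oas1a at chr5:120907526-120907625 on the minus strand, Stat2 at chr10:128270258-128270497 on the plus strand and Irf1 at chr11:53769904-53770013 on the plus strand.
Isg15: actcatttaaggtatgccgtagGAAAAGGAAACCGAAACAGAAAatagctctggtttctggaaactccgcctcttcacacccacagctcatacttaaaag
Ifit1: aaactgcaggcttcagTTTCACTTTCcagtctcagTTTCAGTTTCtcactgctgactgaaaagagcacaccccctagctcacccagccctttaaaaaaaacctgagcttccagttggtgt
Ifit3: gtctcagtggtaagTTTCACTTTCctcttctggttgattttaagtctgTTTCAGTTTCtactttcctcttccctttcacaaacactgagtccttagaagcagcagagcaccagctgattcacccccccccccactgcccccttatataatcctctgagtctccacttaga
Oas1a: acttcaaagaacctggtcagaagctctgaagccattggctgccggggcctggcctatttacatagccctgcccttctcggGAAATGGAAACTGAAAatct
Stat2: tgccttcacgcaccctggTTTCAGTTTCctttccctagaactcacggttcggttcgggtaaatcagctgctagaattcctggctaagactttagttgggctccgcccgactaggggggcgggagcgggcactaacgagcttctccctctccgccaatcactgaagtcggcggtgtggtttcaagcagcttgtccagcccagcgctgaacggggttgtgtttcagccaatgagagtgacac
Irf1: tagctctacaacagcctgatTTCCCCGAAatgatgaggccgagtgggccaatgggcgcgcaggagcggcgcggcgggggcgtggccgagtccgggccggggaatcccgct
In Isg15 there were 3 overlapping matches in a row, while Ifit1 and Ifit3 each held 2 separate matches on the other strand. Oas1a held 2 overlapping matches within the last bases before the start.

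Total counts per library ranged from 7447664 to 10161623, and the 34 members together held from 3251 to 13180 reads in a library. No pair of libraries agreed within sampling noise (smallest chi-square per degree of freedom 5.46). Some libraries stood apart in their tissue makeup. Vehicle 2 held 1826 CPM summed over 8 hepatocyte genes, against 1.74 to 9.81 CPM in the other 7 libraries. Vehicle 1 had the lowest sum over 9 ventricular cardiomyocyte genes, 34835 CPM against 46837 to 59406 CPM, and the highest sum over 10 fibroblast genes, 2551 CPM against 1307 to 1760 CPM. CPM are depth-scaled counts, that is, the reads of a gene over all reads in tested genes, corrected by edgeR's TMM factor. In these bulk samples, fewer cells of a type and less RNA per cell cannot be told apart.

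Interferon-stimulated genes were highest in vehicle 4, and next highest in vehicle 1 for most members, while vehicle 2 and vehicle 3 lay close to the DIZE libraries. The 34 members summed to 713, 466, 535 and 1293 CPM in vehicle 1 to 4 and to 537, 428, 382 and 532 CPM in DIZE 1 to 4. Vehicle 4 held the highest value for 32 of the 34 members, and vehicle 1 for the remaining Ifi27 and Ifi27l2a. Over all tested genes, vehicle 4 was the highest library for 7.87% and vehicle 1 for 22.5%. For 23 of the 34 members vehicle 1 and vehicle 4 were the highest libraries, which was so for 5.24% of all tested genes. DIZE 3 was the lowest library for 24 members.

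**Figure D1:**
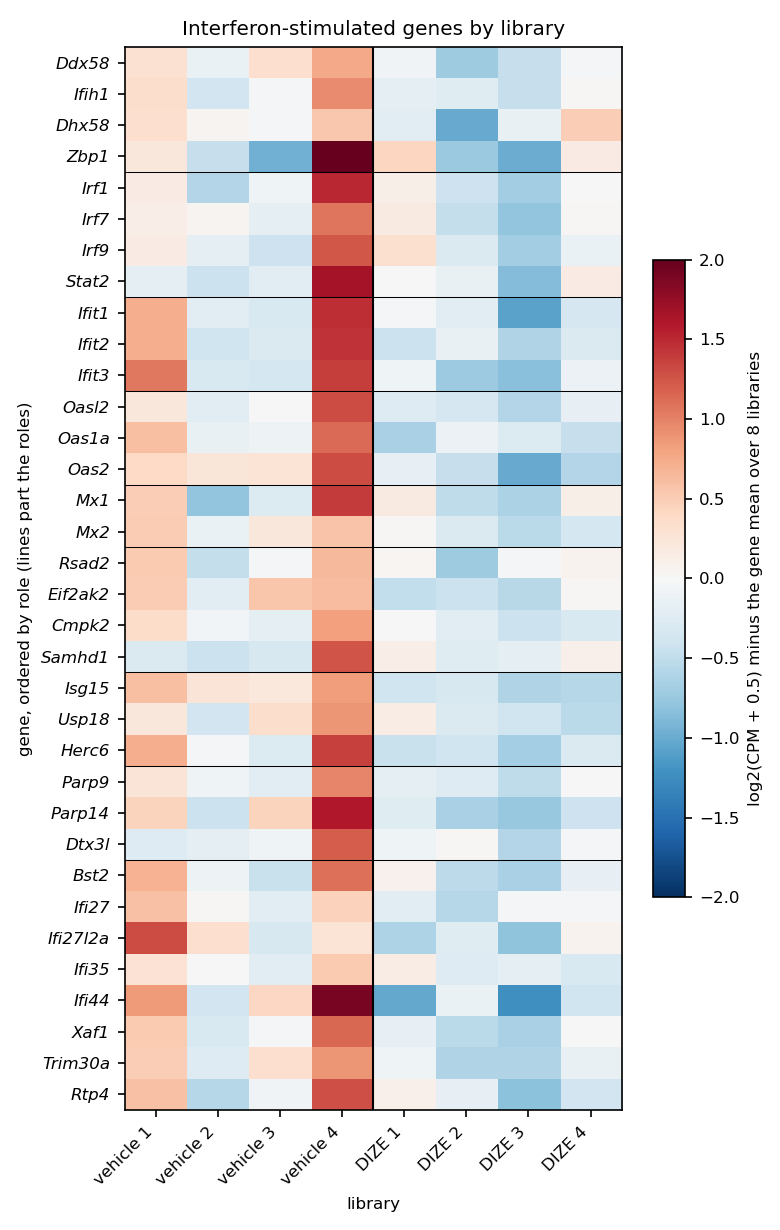
Level of each of the 34 members (rows, ordered by role) in each of the 8 libraries (columns), as log2(CPM + 0.5) minus the gene's mean over the 8 libraries. Vehicle 4 is the highest library in 32 rows, vehicle 1 is above the gene's mean in most rows, and DIZE 3 is the lowest library in 24 rows.

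Set against the DIZE libraries, the vehicle group was not uniform. The level of vehicle 4 lay above all 4 DIZE libraries for all 34 members, with a median of 2.66 times the DIZE mean and a range from 1.58 to 6.84 times. Over all tested genes, 23.5% had vehicle 4 above every DIZE library. Vehicle 1 lay above all DIZE libraries for 27 members (33.6% of all tested genes), with a median of 1.77 times the DIZE mean. Vehicle 3 did so for 12 members (27.1% of all tested genes), with a median of 1.08 times the DIZE mean. Vehicle 2 did so for 5 members (19.5% of all tested genes), with a median of 1.10 times.

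No member passed the test between DIZE and vehicle, although all 33 tested members lay lower in DIZE. Under the quasi-likelihood test of edgeR, with p-values adjusted over all genes by the Benjamini-Hochberg method, the adjusted p of the members ran from 0.0888 for Isg15 to 0.673 for Samhd1. Over all tested genes 0.0366% passed. The median log2 fold change of the members was -0.76, with a range from -1.79 to -0.30, and the median over all tested genes was -0.01. A fold change below 0 was found for 51.8% of all tested genes. At an unadjusted p under 0.05, 21 members were lower and 0 higher, where 10.3% of all tested genes were lower and 9.11% higher. With DESeq2, 7 members passed the adjusted threshold (Oas2, Ifi44, Isg15, Parp14, Eif2ak2, Herc6 and Trim30a), where 4.44% of all tested genes passed, and with limma-voom 0 members passed, where 0.0293% did.

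Without vehicle 4 the difference was smaller and no longer had 1 direction. Of the 33 tested members, 29 then lay lower and 4 higher, where 51.5% of all tested genes lay lower. Their median log2 fold change was -0.41, and 0 passed the adjusted threshold by edgeR (smallest adjusted p 0.141), where 0% of all tested genes passed. At an unadjusted p under 0.05, 9 members were lower, where 9.46% of all tested genes were. These were Isg15, Oas2, Herc6, Ifi44, Ifi27l2a, Parp14, Eif2ak2, Trim30a and Ddx58. The 4 members that lay higher were Samhd1, Zbp1, Stat2 and Dtx3l. Without vehicle 1 in place of vehicle 4, all 33 lay lower (50.2% of all tested genes) with a median of -0.73, and 11 were lower at an unadjusted p under 0.05 (8.68% of all tested genes). Without DIZE 3 that number was 10 (7.79% of all tested genes). Without vehicle 2, the library with hepatocyte transcripts, 5 members passed the adjusted threshold by edgeR, namely Eif2ak2, Isg15, Parp14, Ifi44 and Trim30a, where 1.73% of all tested genes passed, and 25 were lower at an unadjusted p under 0.05 (12.2%). With vehicle 1 and vehicle 4 both left out, an alternative chosen after the values were seen, 25 members lay lower and 8 higher (lower in 49.7% of all tested genes), and their median was -0.12. Eif2ak2, Isg15, Oas2 and Parp14 were then the 4 members lower at an unadjusted p under 0.05 (6.38% of all tested genes).

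**Figure D2:**
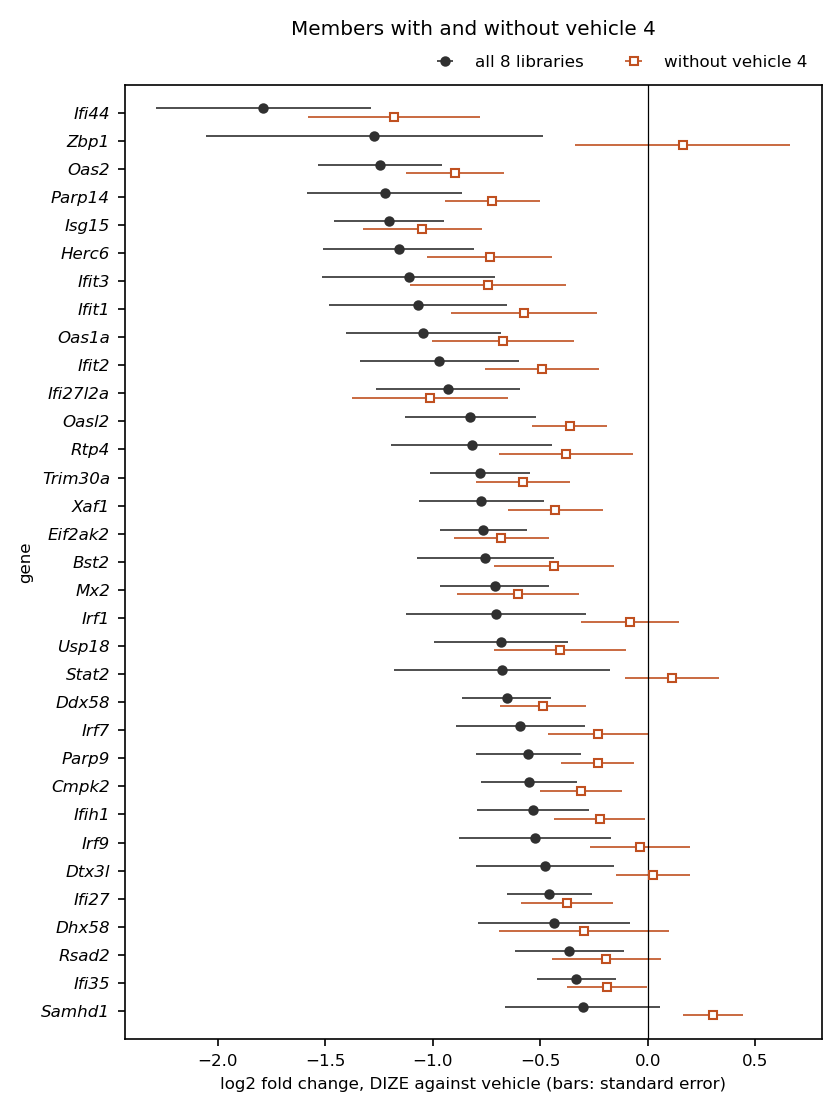
Log2 fold change of DIZE against vehicle (horizontal axis, bars are standard errors) for the 33 tested members, with all 8 libraries (filled circles) and without vehicle 4 (open squares). All 33 circles lie below 0, and the squares of Samhd1, Zbp1, Stat2 and Dtx3l lie above 0.

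The 3 members of the ISG15 system differed in how far vehicle and DIZE lay apart. Isg15 encodes a ubiquitin-like protein that is secreted or joined to other proteins, and it had 3.69, 2.82, 2.68 and 4.41 CPM in vehicle 1 to 4 and 1.59, 1.71, 1.31 and 1.37 CPM in DIZE 1 to 4. Every DIZE library lay below every vehicle library, and vehicle 2 and vehicle 3 were separated from DIZE too. The level was low, and the log2 fold change was -1.20 ± 0.26 SE with all libraries (edgeR adjusted p = 0.0888) and -1.05 ± 0.28 SE without vehicle 4. Herc6 encodes the main ligase that joins ISG15 to proteins in the mouse, and it had 8.62, 4.87, 4.02 and 13.7 CPM in vehicle 1 to 4 and 3.54, 3.68, 2.93 and 4.00 CPM in DIZE 1 to 4. The groups did not overlap, although vehicle 3 and DIZE 4 were nearly equal, and the log2 fold change was -1.16 ± 0.35 SE (edgeR adjusted p = 0.138), or -0.73 without vehicle 4. Usp18 encodes the protease that removes ISG15 and blocks signalling at the type I receptor, and it had 4.00, 2.44, 4.43 and 6.57 CPM in vehicle 1 to 4 and 3.78, 2.63, 2.43 and 2.15 CPM in DIZE 1 to 4. Its groups overlapped, since vehicle 2 lay among the DIZE libraries (log2 fold change -0.68 ± 0.31 SE, edgeR adjusted p = 0.257). Across the whole module 3 members had no overlap between the groups, namely Isg15, Oas2 and Herc6, where 5.26% of all tested genes had every DIZE library below every vehicle library. The same 3 had no overlap without vehicle 4 (7.09% of all tested genes), and without vehicle 2 the number was 12 (10.8%).

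The oligoadenylate synthetase family makes a short RNA-like messenger that activates the nuclease RNase L. Oas2 had 10.2, 9.11, 9.25 and 19.6 CPM in vehicle 1 to 4 and 6.71, 5.39, 3.54 and 4.88 CPM in DIZE 1 to 4. Vehicle 1, vehicle 2 and vehicle 3 lay close together, vehicle 4 stood above them, and the highest DIZE library was under the lowest vehicle library (log2 fold change -1.25 ± 0.29 SE, edgeR adjusted p = 0.0919). Without vehicle 4 its groups still did not overlap, and the log2 fold change was -0.90 ± 0.23 SE. Oas1a, another synthetase, had 3.59, 1.92, 2.01 and 5.39 CPM in vehicle 1 to 4 and 1.22, 1.97, 1.72 and 1.46 CPM in DIZE 1 to 4. Vehicle 2 and vehicle 3 lay beside the highest DIZE library, and the log2 fold change was -1.04 ± 0.36 SE (edgeR adjusted p = 0.165), or -0.67 without vehicle 4. Oasl2, a family member with ubiquitin-like domains, had 17.1, 12.6, 14.6 and 36.8 CPM in vehicle 1 to 4 and 12.1, 11.4, 9.50 and 12.97 CPM in DIZE 1 to 4. Vehicle 2 lay between DIZE 1 and DIZE 4, and the log2 fold change was -0.83 ± 0.30 SE (edgeR adjusted p = 0.185), or -0.36 without vehicle 4. Oas1a has closely related neighbours, so its reads are uncertain.

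**Figure D3:**
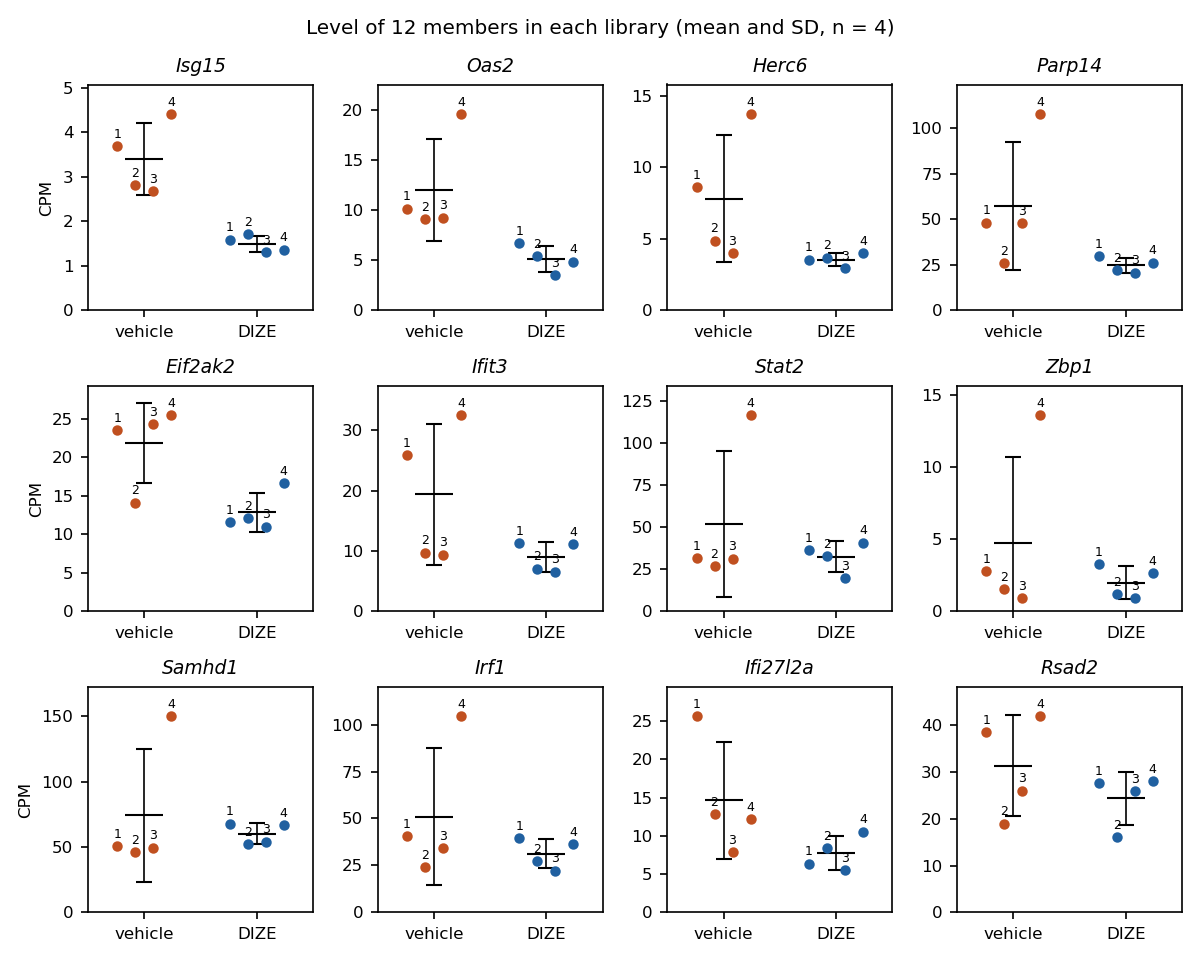
CPM (vertical axis, from 0) of 12 members in each library, numbered by replicate, with the mean and SD of each group (n = 4). Isg15, Oas2 and Herc6 show no overlap between vehicle and DIZE, Stat2, Zbp1, Samhd1 and Irf1 show a single high vehicle library, and Ifi27l2a is highest in vehicle 1; the lower error bar of Zbp1 in vehicle is cut off at 0.

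The PARP9 group joins ADP-ribosylation to the interferon response, and its genes sit side by side on chromosome 16. Parp14, an ADP-ribosyltransferase gene (chr16:35832874-35871544), had 48.2, 26.04, 48.0046 and 108 CPM in vehicle 1 to 4 and 29.7, 22.2, 20.7 and 26.2 CPM in DIZE 1 to 4. All vehicle libraries but vehicle 2 lay above every DIZE library, with vehicle 4 highest (log2 fold change -1.22 ± 0.36 SE, edgeR adjusted p = 0.137, and -0.72 ± 0.22 SE without vehicle 4). Parp9 (chr16:35938470-35972605) encodes the partner of the ubiquitin ligase DTX3L, and it had 31.3, 24.8, 22.5 and 52.2 CPM in vehicle 1 to 4 and 23.1, 21.8, 18.3 and 26.03 CPM in DIZE 1 to 4. Dtx3l (chr16:35926511-35939151) had 20.8, 21.8, 23.3 and 58.1 CPM in vehicle 1 to 4 and 23.3, 25.3, 16.4 and 24.6 CPM in DIZE 1 to 4. For Dtx3l vehicle 4 stood alone, and the other vehicle libraries lay within the range of the DIZE libraries. The log2 fold change was -0.56 ± 0.24 SE for Parp9 and -0.48 ± 0.32 SE for Dtx3l, and without vehicle 4 it was -0.23 and 0.03. Parp9 and Dtx3l overlap head to head on opposite strands with similar levels, and the sources used here do not say whether counting used strand, so their reads are uncertain.

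Effectors that act on nucleotides, viral RNA and translation differed among themselves, with Eif2ak2 near the module's median fold change and Rsad2, Cmpk2 and Samhd1 closer to 0. Eif2ak2 encodes the kinase PKR, which stops translation on binding double-stranded RNA, and it had 23.5, 14.1, 24.3 and 25.5 CPM in vehicle 1 to 4 and 11.6, 12.1, 11.02 and 16.7 CPM in DIZE 1 to 4. The 3 vehicle libraries other than vehicle 2 were nearly equal and above every DIZE library, so Eif2ak2 depended little on vehicle 4 (log2 fold change -0.77 ± 0.20 SE, edgeR adjusted p = 0.111, and -0.68 ± 0.22 SE without vehicle 4). Rsad2 encodes viperin, an enzyme that makes a chain-terminating nucleotide, and it had 38.6, 18.98, 26.01 and 41.98 CPM in vehicle 1 to 4 and 27.6, 16.1, 25.9 and 28.1 CPM in DIZE 1 to 4. Cmpk2, its neighbour on chromosome 12 and the kinase that supplies its substrate, had 16.4, 12.1, 10.9955 and 22.7 CPM in vehicle 1 to 4 and 12.6, 10.8, 9.20 and 10.1 CPM in DIZE 1 to 4. Both genes were highest in vehicle 4 and vehicle 1, with vehicle 2 and vehicle 3 within or near the DIZE range (log2 fold change -0.36 ± 0.25 SE for Rsad2 and -0.55 ± 0.22 SE for Cmpk2). Samhd1 encodes an enzyme that breaks down deoxynucleotides, and it had 50.7, 46.3, 49.6 and 150.4 CPM in vehicle 1 to 4 and 68.0021, 52.4, 54.2 and 66.7 CPM in DIZE 1 to 4. Vehicle 1, vehicle 2 and vehicle 3 all lay below every DIZE library and vehicle 4 lay far above, so the sign turned from -0.30 ± 0.36 SE to 0.30 ± 0.14 SE without vehicle 4.

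The IFIT genes lie in a cluster on chromosome 19 and encode proteins that bind foreign or incompletely capped RNA. Ifit1 (chr19:34640871-34650009) had 10.7, 5.26, 4.96 and 18.2 CPM in vehicle 1 to 4 and 6.10, 5.26, 2.73 and 4.88 CPM in DIZE 1 to 4. Ifit2 (chr19:34550694-34576419) had 29.96, 13.6, 14.6 and 49.8 CPM in vehicle 1 to 4 and 13.2, 16.2, 11.6 and 14.6 CPM in DIZE 1 to 4. Ifit3 (chr19:34583531-34588731) had 25.9, 9.75, 9.39 and 32.6 CPM in vehicle 1 to 4 and 11.4, 7.10, 6.57 and 11.1 CPM in DIZE 1 to 4. The cluster had 1 pattern, with vehicle 4 highest, vehicle 1 second, and vehicle 2 and vehicle 3 within the range of the DIZE libraries. The log2 fold changes were -1.07 ± 0.41 SE, -0.97 ± 0.37 SE and -1.11 ± 0.40 SE (edgeR adjusted p = 0.199, 0.198 and 0.182). Without vehicle 4 they were -0.57, -0.49 and -0.74, and 0 of the 3 reached an unadjusted p under 0.05. Ifit3 has a near-identical copy, Ifit3b, so its reads are uncertain.

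Transcription factors of the response were the role with the smallest median difference once vehicle 4 was left out. Stat2, the transducer specific to type I and type III interferon, had 31.7, 26.9, 31.2 and 117 CPM in vehicle 1 to 4 and 36.3, 32.8, 19.7 and 40.9 CPM in DIZE 1 to 4. Irf1, a factor induced above all by interferon gamma, had 40.7, 24.2, 34.3 and 105 CPM in vehicle 1 to 4 and 39.6, 27.4, 22.2 and 36.3 CPM in DIZE 1 to 4. For both genes the other 3 vehicle libraries lay within or near the DIZE range. Irf9, the DNA-binding partner of STAT2, had 29.3, 23.1, 19.6 and 62.4 CPM in vehicle 1 to 4 and 32.96, 21.3, 15.97 and 23.8 CPM in DIZE 1 to 4. Irf7, the factor that amplifies type I interferon genes, had 16.01, 15.3, 12.7 and 31.2 CPM in vehicle 1 to 4 and 16.6, 10.4, 8.29 and 14.8 CPM in DIZE 1 to 4. The median log2 fold change of these 4 genes was -0.64 with all libraries and -0.06 without vehicle 4, and 0 of the 4 reached an unadjusted p under 0.05 in either fit. Irf9 overlaps Rnf31 on the same strand (mean 30.7 CPM), and Irf7 overlaps Phrf1 on the other strand (mean 42.5 CPM), so reads of both are uncertain.

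Sensors of nucleic acid differed among themselves. Ddx58 encodes RIG-I, a sensor of RNA ends, and it had 25.3, 18.7, 26.1 and 35.02 CPM in vehicle 1 to 4 and 19.5, 12.4, 14.9 and 19.99 CPM in DIZE 1 to 4. All vehicle libraries but vehicle 2 lay above every DIZE library (log2 fold change -0.66 ± 0.21 SE, edgeR adjusted p = 0.144, and -0.49 ± 0.20 SE without vehicle 4). Ifih1, which encodes MDA5, a sensor of long double-stranded RNA, had 15.7, 9.23, 11.8 and 23.8 CPM in vehicle 1 to 4 and 10.7, 10.3, 8.69 and 12.4 CPM in DIZE 1 to 4. Dhx58, which encodes the regulator LGP2, had 2.77, 2.18, 2.01 and 3.24 CPM in vehicle 1 to 4 and 1.71, 0.789, 1.82 and 3.12 CPM in DIZE 1 to 4, with overlapping groups. Zbp1 encodes a sensor of Z-form nucleic acid that can start cell death, and it had 2.77, 1.54, 0.939 and 13.6 CPM in vehicle 1 to 4 and 3.30, 1.18, 0.910 and 2.63 CPM in DIZE 1 to 4. It was the member with the largest excess in vehicle 4, 7.79 times the mean of the other 3 vehicle libraries, and its log2 fold change was -1.27 ± 0.79 SE with all libraries and 0.16 ± 0.50 SE without vehicle 4.

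Other induced proteins included the member with the largest fold change. Ifi44, a cytoplasmic protein gene, had 6.67, 2.57, 4.83 and 14.3 CPM in vehicle 1 to 4 and 1.47, 3.16, 1.21 and 2.54 CPM in DIZE 1 to 4. All vehicle libraries but vehicle 2 lay above every DIZE library (log2 fold change -1.79 ± 0.50 SE, edgeR adjusted p = 0.124, and -1.18 ± 0.40 SE without vehicle 4). Trim30a, a tripartite motif gene that restrains inflammatory signalling, had 23.4, 13.6, 20.8 and 30.6 CPM in vehicle 1 to 4 and 15.4, 10.7, 10.7 and 14.8 CPM in DIZE 1 to 4, and it too had vehicle 2 alone among the DIZE values (log2 fold change -0.78 ± 0.23 SE, edgeR adjusted p = 0.132, -0.58 without vehicle 4). Bst2 encodes tetherin, which holds budding virions at the cell surface, and it had 26.1, 14.9, 11.5 and 34.7 CPM in vehicle 1 to 4 and 16.97, 10.9, 10.0046 and 14.1 CPM in DIZE 1 to 4. Vehicle 2 and vehicle 3 lay within the DIZE range (log2 fold change -0.76 ± 0.32 SE, edgeR adjusted p = 0.229, -0.44 without vehicle 4). Ifi27l2a, a small mitochondrial or nuclear membrane protein gene, had 25.7, 12.8, 7.91 and 12.2 CPM in vehicle 1 to 4 and 6.35, 8.42, 5.56 and 10.5 CPM in DIZE 1 to 4. It was the member for which vehicle 1, not vehicle 4, stood apart, and its log2 fold change was -0.93 ± 0.34 SE with all libraries, -1.01 without vehicle 4 and -0.51 without vehicle 1. Ifi27, its neighbour on chromosome 12, had 32.02, 21.4, 18.1 and 29.4 CPM in vehicle 1 to 4 and 18.1, 14.1, 20.6 and 20.8 CPM in DIZE 1 to 4, with vehicle 1 highest and vehicle 4 second.

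The remaining members were all highest in vehicle 4, by margins that differed. Xaf1, which encodes a partner of the apoptosis inhibitor XIAP, had 57.4, 32.1, 38.9 and 88.8 CPM in vehicle 1 to 4 and 35.4, 27.1, 24.96 and 39.7 CPM in DIZE 1 to 4. Rtp4, which encodes a chaperone that helps receptors reach the cell surface, had 12.3, 5.26, 7.64 and 20.2 CPM in vehicle 1 to 4 and 8.67, 7.10, 4.35 and 6.05 CPM in DIZE 1 to 4, and it overlaps Masp1, a more abundant gene on the other strand (mean 37.5 CPM), so its reads are uncertain. Ifi35 had 16.5, 13.3, 11.5 and 19.4 CPM in vehicle 1 to 4 and 14.9, 11.2, 11.7 and 10.7 CPM in DIZE 1 to 4, with vehicle 2 and vehicle 3 within the DIZE range. Their log2 fold changes were -0.78 ± 0.29 SE, -0.82 ± 0.37 SE and -0.33 ± 0.18 SE (edgeR adjusted p = 0.189, 0.261 and 0.339). The Mx genes encode dynamin-like GTPases that block viral replication. Mx2 had 4.52, 2.69, 3.62 and 4.71 CPM in vehicle 1 to 4 and 3.05, 2.37, 1.92 and 2.24 CPM in DIZE 1 to 4, with a log2 fold change of -0.71 ± 0.25 SE (edgeR adjusted p = 0.175) and -0.60 without vehicle 4, and its levels in vehicle 1 and vehicle 4 were nearly equal. Mx1, which had too few reads for the test, had 1.03, 0.128, 0.402 and 2.35 CPM in vehicle 1 to 4 and 0.733, 0.263, 0.202 and 0.683 CPM in DIZE 1 to 4, and vehicle 4 was again the highest. In many laboratory strains Mx1 carries a deletion that leaves the protein inactive.

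The excess in vehicle 4 was not the same for every member, and it differed from that in vehicle 1. Vehicle 4 was at least 2 times the mean of the other 3 vehicle libraries for 19 of the 34 members, where 1.06% of all tested genes were, and at least 3 times for 6 members, where 0.388% were. Those 6 were Zbp1 at 7.79 times, Mx1 at 4.54, Stat2 at 3.89, Irf1 at 3.16, Samhd1 at 3.08 and Ifi44 at 3.06. At the other end were Eif2ak2 at 1.24 times, Ifi27 at 1.23 and Ifi27l2a at 0.787. In vehicle 1 the members farthest above the DIZE mean were Ifi27l2a at 3.33 times, Ifi44 at 3.19 and Ifit3 at 2.86, while Stat2 was at 0.979 times, Dtx3l at 0.931 and Samhd1 at 0.841. Ifi44 was thus high in both libraries, and Stat2, Dtx3l and Samhd1 were above the DIZE mean in vehicle 4 but not in vehicle 1.

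**Figure D4:**
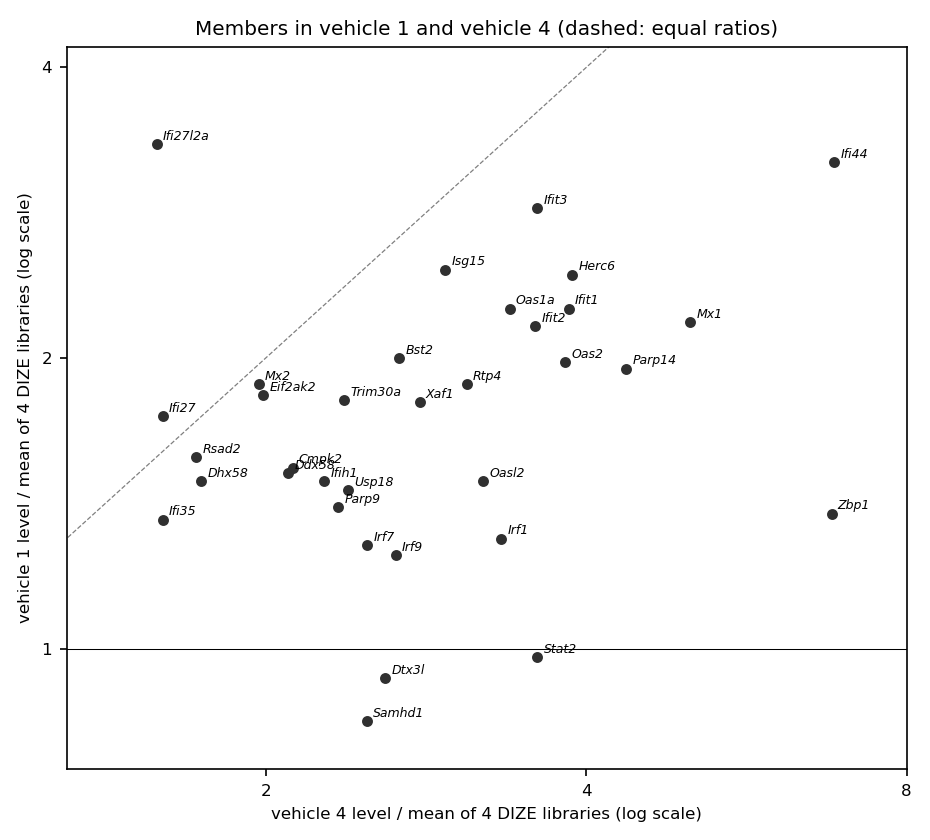
Ratio of each member's level in vehicle 4 (horizontal axis) and in vehicle 1 (vertical axis) to the mean of the 4 DIZE libraries, both on log scales, with 1 point per member and a dashed line at equal ratios. All points lie to the right of 1.5, Ifi27l2a and Ifi27 lie above the dashed line, and Stat2, Dtx3l and Samhd1 lie below 1 on the vertical axis.

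Upstream genes of the pathway had medians near 0, and the interferon genes themselves had almost no reads. Of 12 interferon genes listed, 10 had 0 reads in all libraries. Ifng and Ifnab had 1 read each in all 8 libraries together, Ifng in vehicle 4 and Ifnab in DIZE 4. A count of 0 allows up to 3 reads, which is 0.293 to 0.402 CPM depending on the library and covers counting error only. Of 6 receptor genes, 0 passed the adjusted threshold by edgeR, 4 lay lower and 2 higher (median log2 fold change -0.08). Ifnar1, a chain of the type I receptor, had 43.8, 29.1, 47.1 and 35.9 CPM in vehicle 1 to 4 and 29.5, 30.8, 31.8 and 32.5 CPM in DIZE 1 to 4. Ifngr1, a chain of the interferon gamma receptor, had 111, 77.3, 91.05 and 73.9 CPM in vehicle 1 to 4 and 77.8, 62.4, 79.7 and 77.8 CPM in DIZE 1 to 4. Neither receptor gene was highest in vehicle 4. Of 11 tested sensors and adaptors that act before interferon, 0 passed, with 7 lower and 4 higher (median -0.10), and of 6 tested negative regulators 0 passed, with 4 lower and 2 higher (median -0.05). At an unadjusted p under 0.05, 1 receptor gene and 1 negative regulator were higher, and 0 were lower. Over all tested genes, 9.11% were higher and 10.3% lower.

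Among the 5 signal transducers tested, 0 passed the adjusted threshold by edgeR, with 4 lower and 1 higher (median log2 fold change -0.23). At an unadjusted p under 0.05, 1 was lower, where 10.3% of all tested genes were. That gene was Jak2, a kinase of the interferon gamma receptor, which had 60.4, 47.1, 47.5 and 56.3 CPM in vehicle 1 to 4 and 43.1, 45.9, 41.7 and 42.8 CPM in DIZE 1 to 4. Every DIZE library of Jak2 lay below every vehicle library, as for 5.26% of all tested genes. Its log2 fold change was -0.28 ± 0.12 SE (edgeR adjusted p = 0.216). Jak1, a kinase of both receptors, had 159, 145, 197 and 188 CPM in vehicle 1 to 4 and 163, 128, 143 and 154 CPM in DIZE 1 to 4, with overlapping groups (log2 fold change -0.23 ± 0.13 SE).

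Interferon-stimulated genes outside the module and genes weighted toward interferon gamma were mostly lower in DIZE with all libraries, and both lists shifted once vehicle 4 was left out. Of 45 tested further interferon-stimulated genes, 42 lay lower and 3 higher, 0 passed the adjusted threshold by edgeR, and the median log2 fold change was -0.45. Without vehicle 4 there were 32 lower and 13 higher (median -0.27), and without vehicle 1 and vehicle 4 there were 26 lower and 19 higher (median -0.09). At an unadjusted p under 0.05, 17 of the 45 were lower with all libraries (10.3% of all tested genes) and 15 without vehicle 4 (9.46%). Slfn5, a Schlafen family gene, had 172, 94.7, 163 and 153 CPM in vehicle 1 to 4 and 107, 98.9, 74.5 and 91.3 CPM in DIZE 1 to 4, a pattern in which vehicle 2 and not vehicle 4 differed from the other vehicle libraries. Of 18 tested genes weighted toward interferon gamma, all 18 lay lower with all libraries (median -1.23), while without vehicle 4 there were 6 lower and 12 higher (median 0.08). Without vehicle 1 and vehicle 4 there were 1 lower and 17 higher (median 0.50). Over all tested genes, 51.8%, 51.5% and 49.7% lay lower in these fits, in the same order. With all libraries, 0 of these 18 genes passed the adjusted threshold by edgeR. At an unadjusted p under 0.05, 1 of the 18 was lower, where 10.3% of all tested genes were. Igtp, an immunity-related GTPase gene, had 30.1, 20.4, 13.5 and 535 CPM in vehicle 1 to 4 and 58.1, 24.1, 16.3 and 51.7 CPM in DIZE 1 to 4, and it overlaps Irgm2 on the same strand, so its reads are uncertain. Iigp1, a related GTPase gene, had 86.6, 51.7, 25.6 and 701 CPM in vehicle 1 to 4 and 100.1, 76.2, 32.8 and 84.1 CPM in DIZE 1 to 4. Relative to the mean of the 8 libraries, the gamma-weighted genes had a median log2 level of 2.48 in vehicle 4 and 0.27 in vehicle 1, and the members had 1.13 and 0.45. The difference between these lists was not tested.

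**Figure D5:**
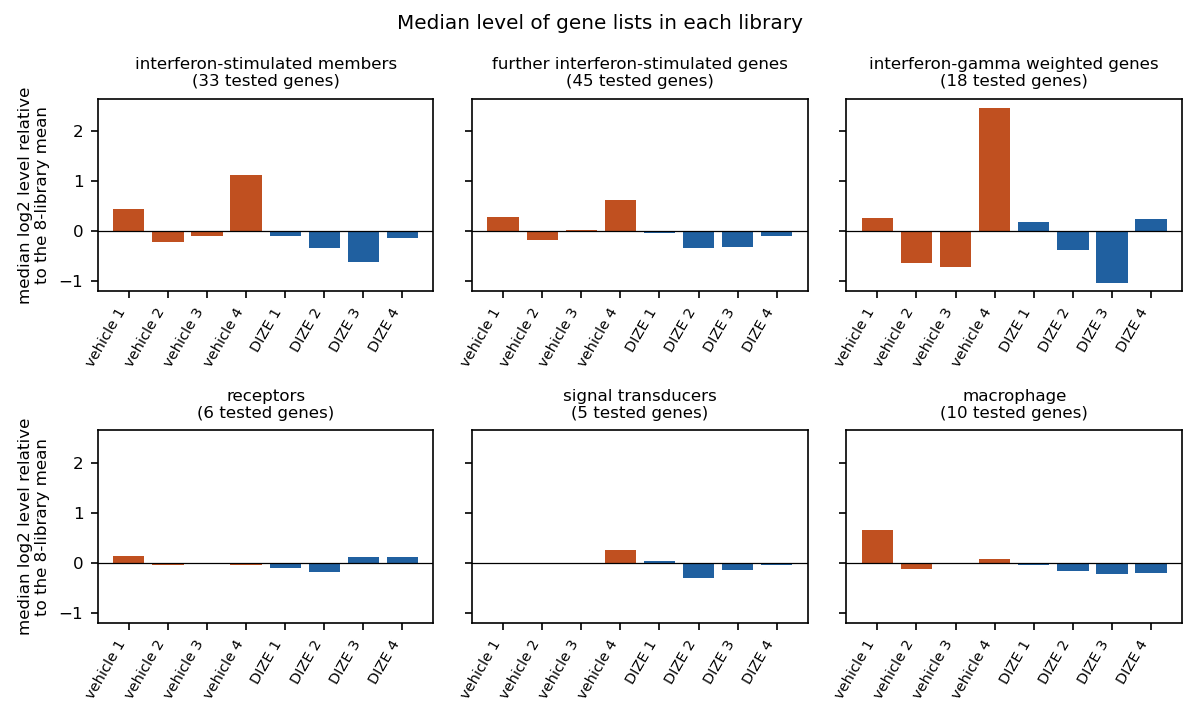
Median log2 level of 6 gene lists in each library relative to the gene's mean over the 8 libraries (bars from 0, vehicle in orange and DIZE in blue). Vehicle 4 stands at 1.13 for the interferon-stimulated members and 2.48 for the gamma-weighted genes, while the macrophage list is highest in vehicle 1, at 0.65.

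Vehicle 4 did not have the highest summed level for any of the 6 immune cell lists, but it came next after vehicle 1 for the T cell, NK cell and macrophage lists. The 10 T cell genes summed to 3.72 to 7.29 CPM in vehicle and 3.23 to 6.34 CPM in DIZE, with vehicle 4 at 7.26 and vehicle 1 at 7.29 CPM. The 8 NK cell genes summed to 0.257 to 1.64 CPM in vehicle and 0.202 to 1.07 CPM in DIZE, with vehicle 4 at 1.37 and vehicle 1 at 1.64 CPM. Both sums were low. The 6 B cell genes summed to 11.1 to 22.5 CPM in vehicle and 4.74 to 20.1 CPM in DIZE, and the 6 neutrophil genes to 3.21 to 7.80 and 4.29 to 10.3 CPM. The 10 macrophage genes summed to 750 CPM in vehicle 1, to between 484 and 538 CPM in vehicle 2 to 4 and to between 429 and 507 CPM in DIZE. Of these 10 genes, 9 lay lower in DIZE (51.8% of all tested genes), and 0 passed the adjusted threshold by edgeR. At an unadjusted p under 0.05, 3 were lower (10.3% of all tested genes). Without vehicle 4 these counts were again 9 (51.5%) and 3 (9.46%). Without vehicle 1 and vehicle 4 together they were 8 (49.7%) and 0 (6.38%). The 6 genes of dendritic and plasmacytoid dendritic cells summed to 33.7 to 45.9 CPM in vehicle and 26.9 to 35.1 CPM in DIZE. The 10 endothelial genes summed to 1624 to 2411 CPM in vehicle and 1473 to 2160 CPM in DIZE, with vehicle 4 the lowest of the vehicle libraries. The 6 atrial genes summed to 963 CPM in vehicle 1, 397 CPM in vehicle 4, 119 and 46.3 CPM in vehicle 2 and vehicle 3 and 22.1 to 156 CPM in DIZE, so atrial transcripts were highest in the same libraries as the module. The 8 erythroid genes summed to 102 to 211 CPM in vehicle and 9.34 to 78.9 CPM in DIZE, without overlap, and vehicle 4 was the lowest of the vehicle libraries. The part of atrial tissue, macrophages and blood in the module's levels was not tested.

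Per kilobase of annotated exon, the order of levels was led by small membrane proteins. Ifi27l2a had 31.6 ± 16.5 CPM per kilobase in vehicle and 16.7 ± 4.82 in DIZE (SD, n = 4), Bst2 had 24.1 ± 11.8 and 14.4 ± 3.52, and Ifi27 had 17.2 ± 4.47 and 12.5 ± 2.13. Irf1 followed with 12.8 ± 9.15 and 7.89 ± 2.00 CPM per kilobase. These 4 genes held the same places in both groups, and in vehicle each pair of neighbours differed by less than the larger of their SDs, although Bst2 exceeded Ifi27 by more than the SD of Ifi27. The lowest were Dhx58 at 0.779 and Mx1 at 0.258 CPM per kilobase in vehicle.

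The form of the sample titles splits the libraries evenly within both groups, and what it stands for is not stated. Among libraries whose titles hold the letters db, vehicle 1 and vehicle 2 against DIZE 1 and DIZE 2, 27 members lay lower and 6 higher, where 50.3% of all tested genes lay lower. The members' median was -0.46 on the log2 scale, and 0 passed the adjusted threshold by edgeR (0% of all tested genes), with 3 lower at an unadjusted p under 0.05 (4.45%) and 9 without overlap (22%). Among the others, vehicle 3 and vehicle 4 against DIZE 3 and DIZE 4, all 33 lay lower (49.2% of all tested genes) with a median of -1.02, 9 were lower at an unadjusted p under 0.05 (14.4%) and 15 had no overlap (28.1%). By edgeR 5 passed the adjusted threshold, where 9.57% of all tested genes passed. These were Eif2ak2, Usp18, Ddx58, Trim30a and Isg15. Isg15 had a log2 fold change of -0.98 in the first set and -1.42 in the second, and Oas2 had -0.66 and -1.79.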

How the data were processed

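Heart RNA was poly(A)-selected and sequenced from stranded libraries as read pairs, per the labels' protocols. The authors deposited 1 table of unnormalized read counts by Ensembl identifier. Tools listed in the submitters' processing notes are HTSeq 0.6.1p1, STAR 2.7.3, R 4.1 and edgeR, and the build is mm10. The sources used here do not give the annotation release or the strand setting. Columns were tied to samples by the sample descriptions, and symbols matched 55141 of 55487 genes. Coordinates and exon lengths came from GENCODE M21 and promoters from RefSeq, both on GRCm38, the assembly of mm10.

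Total counts of 7447664 to 10161623 give few reads to members near 1 CPM. DIZE was compared with vehicle by edgeR 4.0.16 (R 4.3.3; quasi-likelihood, robust, TMM, filterByExpr with minimum count 10 and total 15), fitted on all genes, with Benjamini-Hochberg adjustment and a threshold of 0.05. Standard errors are the log2 fold change divided by the square root of F. Relative levels use log2(CPM + 0.5). On simulated data for this comparison (13648 genes, 5 simulations), 17.6% of genes changed 1.5-fold, 71.6% changed 2-fold and 94.0% changed 4-fold were recovered, and 5.91% of calls were false. The simulation drew every gene independently and held no shift shared by many genes of a library. Its rates therefore may not hold for these libraries, where the members move together.

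Alternatives were DESeq2 1.42.0, limma-voom (limma 3.58.1), other size factors and filters, GC and length correction, title form or number as a block, each title form alone, and leaving out each library. Leaving out vehicle 1 and vehicle 4 together was added after the data were seen. The members and the gene lists were chosen with earlier results of these data known. All 34 members are named. Genes named from each other list were taken from the 4 with the highest mean CPM, not always the highest of these, and Igtp. A gene of the signal transducer list is not reported here by name.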

Additional observations from a re-analysis of the deposited data

Results flagged for a closer look

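In 5 members vehicle 4 lay so far from the other 3 vehicle libraries that the gap, as a share of the group's whole range on the CPM scale, passed Dixon's 95% critical value. Samhd1 was at 150.4 CPM in vehicle 4, with a gap of 0.958 of the range. Stat2 was at 116.5 CPM (0.947), Dtx3l at 58.1 CPM (0.933), Oas2 at 19.6 CPM (0.90) and Zbp1 at 13.6 CPM (0.856). All 5 were high values of the same library, out of 68 groups examined, and no DIZE library was. Chance flags about 1 in 20 groups, and since the members move together these are not independent. Of the 5, Oas2 kept its lower level in DIZE without vehicle 4 (log2 fold change -0.90 ± 0.23 SE), while Samhd1 (0.30), Stat2 (0.11), Dtx3l (0.03) and Zbp1 (0.16) lay higher in DIZE.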

How the results depend on the processing

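The median of the 33 tested members stayed below 0 in every alternative run. It was -0.76 with all libraries, between -0.92 and -0.41 with 1 library left out, -0.29 with the number in the titles as a replicate block and -0.12 without vehicle 1 and vehicle 4. The number of members lower at an unadjusted p under 0.05 was 21 by edgeR (10.3% of all tested genes). With 1 library left out it ran from 9 without vehicle 4 (9.46%) to 25 without vehicle 2 (12.2%). It was 5 with the replicate block, for which no share over all tested genes is given. It was 3 and 9 in the titles with and without the letters db (4.45% and 14.4% of all tested genes), and 4 without vehicle 1 and vehicle 4 (6.38%). Members past the adjusted threshold, 0 by edgeR (0.0366% of all tested genes), numbered 7 with DESeq2 (4.44%) and 2 without a filter on low counts (386 genes in all). They numbered 5 in the titles without the letters db (9.57%) and 0 to 5 with 1 library left out. The 5 were reached without vehicle 2 (1.73%). Members without overlap, 3 with all libraries (5.26% of all tested genes), numbered 3 to 12 with 1 library left out, with 12 without vehicle 2 (10.8%). They numbered 9 in the titles with the letters db (22%) and 15 in the others (28.1%). Such counts rise as libraries are removed by construction. Over all genes the 5 calls became 606 with DESeq2, 386 without a filter, 0 with library totals only, 9 with the title form as a block, 0 with the replicate block, 0 and 1349 in the titles with and without the letters db, 40 with the GC and length trend removed, 0 without vehicle 1 and vehicle 4 and 0 to 240 with 1 library left out. The cause of these shifts was not tested.

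The direction turned to higher in DIZE for a few members, and in each such setting vehicle 4 was absent or had no partner of its number. Without vehicle 4 this held for Zbp1 (0.16), Stat2 (0.11), Samhd1 (0.30) and Dtx3l (0.025), whose values with 1 library left out began at -1.59, -0.89, -0.47 and -0.63. In the titles with the letters db it held for Zbp1 (0.055), Irf1 (0.047), Irf9 (0.055), Stat2 (0.24), Samhd1 (0.32) and Dtx3l (0.19). With the replicate block it held for Zbp1 (0.49), Irf1 (0.067), Irf9 (0.11), Stat2 (0.29), Samhd1 (0.35) and Dtx3l (0.15). Without vehicle 1 and vehicle 4 it held for Zbp1 (0.68), Irf1 (0.10), Irf9 (0.14), Stat2 (0.16), Samhd1 (0.33), Ifih1 (0.002), Rsad2 (0.12) and Rtp4 (0.013). DIZE 3, the lowest library for 24 members, was also absent from the titles with the letters db. With the replicate block its number had no partner either. The part of each library in these turns was not tested. The title numbers shared by the groups are 1 and 4 alone, no label says that they pair animals, and deviations of same-numbered libraries from their group means correlated between -0.14 and 0.02 across genes, which are not independent replicates. At this depth Mx1 could not be tested and Isg15 rests on 13 to 45 reads per library.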
